A study of Homo sapiens with 108 samples.

Results

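The mRNAs of 10 protein components of the minor spliceosome (ZMAT5, PDCD7, SNRNP25, SNRNP35, SNRNP48, RNPC3, ZCRB1, RBM48, ARMC7 and SCNM1) were followed in a SLAM-seq series. The cells were HEK293T, a transformed line from human embryonic kidney. The members were chosen by name, as 10 of the 19761 genes counted, and ZMAT5 is itself the target of one of the knockdowns. Cells were transduced with a lentiviral short hairpin RNA (shRNA) and selected with puromycin. The hairpin was directed against ZMAT5, against one of 7 other genes (ZNF706, ZMAT3, PHF7, MAZ, ZFP36L1, BRCA1 and CNOT4) or against no human gene (the non-targeting arm, NT). Cells of all 9 arms were kept in 10 µM 4-thiouridine (4SU) for 24 h and then in 1 mM uridine for 0, 2, 4 or 8 h before lysis. With 3 biological replicates each, this gave 12 libraries per arm and 108 in all. The sources used here list 1 hairpin for ZMAT5, so effects of that hairpin on other mRNAs cannot be told apart from effects of the loss of ZMAT5.

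The minor spliceosome removes a small, conserved class of introns, called U12-type, from otherwise ordinary genes. A di-snRNP of the U11 and U12 small nuclear RNAs recognises these introns, with U11 at the 5′ splice site and U12 at the branch point. ZMAT5, PDCD7, SNRNP25, SNRNP35, SNRNP48, RNPC3 and ZCRB1 are the proteins particular to that di-snRNP. RBM48 and its partner ARMC7, and SCNM1, join at later steps of minor intron splicing. Cells are known to adjust the supply of some of these proteins through the U11 splicing enhancer, a pair of U12-type 5′ splice site motifs in the SNRNP48 and RNPC3 pre-mRNAs. When U11 binds the pair, a neighbouring splice site is used and the product is an unproductive or retained mRNA.

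Libraries were read from the poly(A) end, and the count of a member is the sum of its reads over its annotated 3′ UTR intervals (hg38). Levels are given as CPM of the reads in 3′ UTRs after TMM scaling over all libraries, named normalised CPM. Label is the percentage of covered T positions read as C, since an alkylated 4SU is read as C. To be called, a change in level needed a fold over 1.2 either way and, in the edgeR quasi-likelihood test, a p under 0.05 after Benjamini-Hochberg adjustment. Lower mRNA per cell and fewer cells that carry an mRNA cannot be told apart in these bulk samples.

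Depth ranged from 63659 to 30750027 reads in 3′ UTRs per library, with a median of 10187470 in NT and 17141085 in ZMAT5. Libraries that stood apart were PHF7 8 h replicate 3, with 63659 reads, and CNOT4 2 h replicate 3, with 1781724. The 3 CNOT4 8 h libraries held 5.82% to 5.91% multimapped reads, against 6.22% to 12.4% in the other 105. CNOT4 and ZFP36L1 libraries covered 25.9 to 34.0 T positions per read, against 35.7 to 38.0 elsewhere. The targeted mRNA was called lower than NT in its own arm in MAZ (log2 -3.04, adjusted p = 3.0e-27), ZMAT3 (adjusted p = 2.7e-05) and ZNF706 (log2 -1.03, adjusted p = 0.0021), besides ZMAT5. It was not called in PHF7 (-2.07, adjusted p = 0.34), BRCA1 (-0.91, adjusted p = 0.22) or CNOT4 (-0.04, adjusted p = 0.95). In the libraries labelled ZFP36L1 it was higher than in NT (0.80, adjusted p = 0.0023), which goes against the label. Of 7 HEK293T markers, VIM, LIN28B, NEFL, NEFM, KRT18 and KRT8 had medians of 789, 92.8, 50.4, 38.6, 33.0 and 6.79 normalised CPM, and PAX2 had a median of 0. Of 11 markers of hepatocytes, erythroid cells, fibroblasts, immune cells and endothelium, 10 had a median of 0, and COL1A1 a median of 14.9. The summed HEK293T markers ranged from 776 to 1128 in NT and from 1164 to 1416 in ZMAT5. VIM had medians of 704 and 1078 in these arms, whereas KRT18 had 37.8 and 27.8 and NEFM 39.7 and 34.9. The part of these differences in the results below was not tested.

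The target site of the ZMAT5 hairpin is shown because it marks where the knockdown acts, and the paired motifs are shown because they single out the 2 members with the U11 splicing enhancer. Capitals mark the 7-letter motif TATCCTT, the common part of the U12-type 5′ splice site, and lower case marks the bases around it.

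ZMAT5 hairpin target: gaaggtctggtacgacatgtt
SNRNP48 motif pair: TATCCTTtttgcaaatgaTATCCTT
RNPC3 motif pair: TATCCTTtcttgtcgTATCCTT

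The hairpin target lies at chr22:29748423-29748443, minus strand, inside the coding sequence of exon 2 of 6 in ZMAT5-201, and no other annotated gene's transcripts hold it. It is the hairpin listed for ZMAT5, and the sources used here do not state that the SLAM-seq libraries used it. That exon is not in the counted 3′ UTR interval, so the reads below come from the 3′ end of the mRNA, downstream of the site. They do not tell an intact mRNA from a 3′ part of it. The SNRNP48 pair lies at chr6:7599737-7599761, plus strand, in intron 4 of the main transcript SNRNP48-201. In SNRNP48-203, a transcript annotated for nonsense-mediated decay, the intron that holds the pair starts later, at 7599681, after an extra exon. The RNPC3 pair lies at chr1:103553319-103553340, plus strand, within the counted 3′ UTR interval, and is intronic in RNPC3-201 but part of the 3′ UTR exon of RNPC3-202 and RNPC3-208. The search was for 2 copies of TATCCTT on the transcribed strand within 40 bases of each other in the gene. It found none in the other 8 members, and found a pair in 4.02% of 19280 protein-coding genes, and in 1.05% and 1.60% of genes of a length like SNRNP48 and RNPC3. RNPC3 was also the only member with a U12-type intron by the rule used here (first bases GTATCCTT, 647 bases, chr1:103551074-103551720).

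The first comparison asked what happened to the other minor spliceosome mRNAs when ZMAT5 was depleted. ZMAT5 mRNA fell to 10.4% of its level in NT, and SNRNP48 mRNA, which encodes the protein that contacts the 5′ splice site, rose to 127%. No call was made for the other 8 members. The 2 calls among 10 members include the target of the hairpin, and stand beside 9.51% of all 13149 genes tested (695 up, 555 down). The median log2 change was -0.02 over the 10 members and 0.06 over all genes.

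ZMAT5 mRNA stood between 7.76 and 23.4 normalised CPM in the 12 NT libraries, with a median of 15.4. In the 12 ZMAT5 libraries it stood between 0 and 4.35, with a median of 1.32. All 12 ZMAT5 libraries lay below the lowest NT library, so the arms did not overlap (log2 change -3.26, SE 0.61, adjusted p = 0.00023). In the 0 h libraries alone the direction was kept and the call was lost (adjusted p = 0.42). The reads behind these values were few, 79 to 247 per NT library and 0 to 69 per ZMAT5 library. The counted interval of 271 bases (chr22:29730957-29731227) lies wholly within that of CABP7 on the opposite strand. Over all libraries it held 24244 reads against 779 for the larger CABP7 interval, a pattern that counting without strand cannot give. Across arms the mean ranged from 23.9 ± 6.89 (SD, n = 12) in the libraries labelled ZFP36L1 down to 13.1 ± 3.26 in ZNF706. Neighbours in that order differed by less than their SD, and the step from ZNF706 down to the ZMAT5 arm, at 1.56 ± 1.28, was the one larger than it.

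SNRNP48 mRNA at 0 h of chase was 106, 153 and 155 normalised CPM in the NT libraries and 194, 174 and 139 in the ZMAT5 libraries. At 2 h it was 86.1, 88.2 and 111 in NT and 132, 142 and 127 in ZMAT5. At 4 h it was 104, 90.9 and 111 in NT and 132, 174 and 141 in ZMAT5. These 2 times are where the arms did not overlap. How many of all genes separated likewise was not counted. Dependence of the SNRNP48 difference on chase time was not called (edgeR F test, unadjusted p = 0.33). At 8 h it was 103, 124 and 143 in NT and 149, 93.3 and 130 in ZMAT5. Of the 12 ZMAT5 libraries, 11 lay above the NT median of 108 and 3 above the highest NT library. The log2 change over all times was 0.34 (SE 0.11, adjusted p = 0.043). This call was lost without the low-count filter (adjusted p = 0.067), without replicate 1 (0.22, adjusted p = 0.48) or replicate 2 (0.33, adjusted p = 0.18) of both arms, and in the 0 h libraries alone (0.29, adjusted p = 0.74), and the direction was kept in each.

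**Figure D1:**
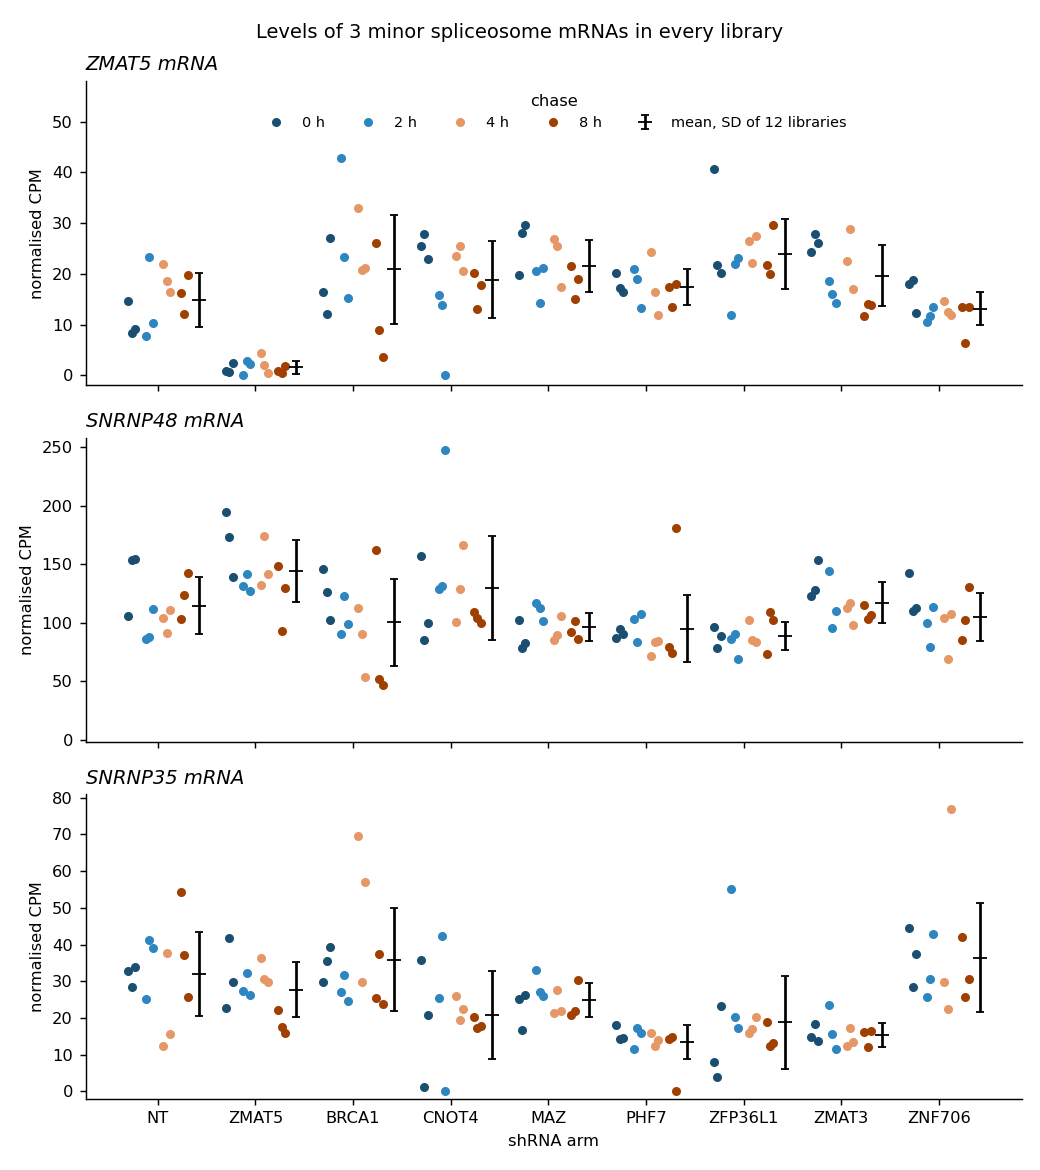
Normalised CPM of ZMAT5, SNRNP48 and SNRNP35 mRNA (vertical axes, linear) in each library of the 9 shRNA arms (horizontal axis), coloured by hours of chase, with the mean and SD of the 12 libraries of an arm in black. ZMAT5 sits between 0 and 4.35 in its own arm, SNRNP48 is highest on average in the ZMAT5 arm at 144 ± 26.5, and SNRNP35 is lowest in PHF7 and ZMAT3. The SNRNP48 points at 248 in CNOT4 and 181 in PHF7 are the libraries of 1781724 and 63659 reads.

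The other proteins of the di-snRNP core made no call against NT. PDCD7, which bridges U11 and U12, had a log2 change of -0.05 (SE 0.28, adjusted p = 0.96). Its 12 NT libraries ranged from 7.01 to 62.1 normalised CPM and its ZMAT5 libraries from 14.3 to 39.0, so NT spread the wider. SNRNP25 had a log2 change of 0.33 (SE 0.16, adjusted p = 0.23). Its ZMAT5 libraries, at 71.0 to 96.6, lay above the NT median of 68.8 in 12 of 12, within an NT range of 30.3 to 101. SNRNP35, a U11 protein that resembles a U1 snRNP protein, had a log2 change of -0.20 (SE 0.25, adjusted p = 0.73), with 2 of 12 ZMAT5 libraries above the NT median. RNPC3, which binds the U12 snRNA and ties it to U11 through PDCD7, had a log2 change of -0.42 (SE 0.30, adjusted p = 0.46). RNPC3 stood between 7.53 and 58.7 in NT and between 8.59 and 48.1 in ZMAT5. Thus only one of the 2 members with the paired motif was called.

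The remaining 4 members are RNA-binding or late-acting factors. ZCRB1 had a log2 change of 0.19 (SE 0.14, adjusted p = 0.48) and SCNM1 of 0.18 (SE 0.18, adjusted p = 0.64). RBM48 and its partner ARMC7 had log2 changes of 0.02 (SE 0.39) and -0.19 (SE 0.21), with adjusted p of 0.99 and 0.69. The SE of RBM48 was wide, since its NT libraries ran from 14 to 537 reads. A test of whether the difference between arms depended on chase time called none of the 10 members and 0 of 13149 genes by edgeR, with 787 genes and 0 members at an unadjusted p under 0.05. The lowest p among members was 0.13, for SNRNP35.

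A second comparison set the ZMAT5 arm against 4 other knockdowns of similar depth (MAZ, PHF7, ZMAT3 and ZNF706), with no NT library in the fit. Here 3 of 10 members were called, ZMAT5 lower and SNRNP48 and SNRNP35 higher, beside 17.3% of 14469 genes. One of the 3 is the target of the hairpin, and the ZMAT5 libraries are the same as in the comparison with NT. The median log2 difference was -0.00 over members and over all genes.

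SNRNP48 was 0.51 higher on the log2 scale in ZMAT5 than in the mean of the 4 knockdowns (SE 0.08, adjusted p = 2.3e-07), or 142%. The 12 ZMAT5 libraries had a median of 140 normalised CPM. The 48 libraries of the 4 knockdowns ranged from 68.8 to 181 with a median of 102. Of the ZMAT5 libraries 11 lay above that median, and of the 48 others 4 lay above the ZMAT5 median. Set against each knockdown alone, a comparison chosen after seeing the data, SNRNP48 was called higher in ZMAT5 in all 4 fits. The log2 differences were 0.58 against MAZ (SE 0.10, adjusted p = 3.0e-05), 0.70 against PHF7 (SE 0.12, adjusted p = 7.4e-05), 0.30 against ZMAT3 (SE 0.09, adjusted p = 0.012) and 0.46 against ZNF706 (SE 0.11, adjusted p = 0.0038). Those fits called 14.3%, 14.6%, 18.6% and 8.26% of the genes they tested.

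SNRNP35 was 0.37 higher on the log2 scale than the mean of the 4 knockdowns (SE 0.13, adjusted p = 0.028), a call lost without replicate 1 (adjusted p = 0.12) or replicate 2 (0.38). The 4 knockdowns did not lie together. Its mean was 13.6 ± 4.65 normalised CPM in PHF7, 15.5 ± 3.28 in ZMAT3, 24.9 ± 4.54 in MAZ and 36.5 ± 14.7 in ZNF706 (SD, n = 12 each), with 27.7 ± 7.41 in ZMAT5. The difference was called against PHF7 (log2 0.93, adjusted p = 0.00059) and ZMAT3 (0.82, adjusted p = 0.00055). It was 0.14 against MAZ (adjusted p = 0.67) and turned to -0.41 against ZNF706 (adjusted p = 0.20). ZCRB1 was called lower in ZMAT5 against MAZ alone (log2 -0.40, SE 0.08, adjusted p = 0.00066).

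**Figure D2:**
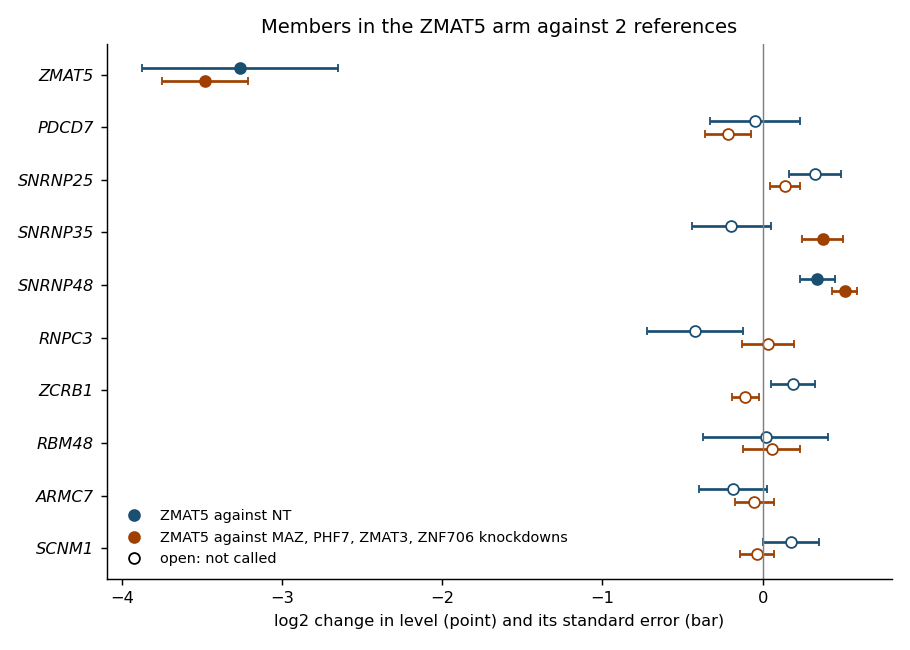
Log2 change in level (horizontal axis) of the 10 members in the ZMAT5 arm, against NT (blue) and against the mean of the MAZ, PHF7, ZMAT3 and ZNF706 knockdowns (brown), with standard errors as bars and filled points for calls. SNRNP48 lies above 0 against both references, at 0.34 and 0.51, and SNRNP35 lies at -0.20 against NT and 0.37 against the 4 knockdowns.

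In the other 7 arms the question was whether any of the members moved with a hairpin against an unrelated gene, although in CNOT4 and ZFP36L1 the targeted mRNA itself was not lower. All 10 members passed the filter on low counts in every comparison, and all share the same 12 NT libraries. Against NT, no member was called in BRCA1 (0.0785% of genes called) or ZNF706 (5.15%). DESeq2 also called none in either, and 0 and 1 members had an unadjusted p under 0.05 in edgeR. In MAZ (8.74% of genes), ZCRB1 rose, and in PHF7 (8.41%) and ZMAT3 (10.2%), SNRNP35 fell. CNOT4 (27.0%) had 1 member up and 1 down, and the libraries labelled ZFP36L1 (40%) had 3 up and 4 down.

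SNRNP35 ranged from 12.2 to 54.4 normalised CPM in NT with a median of 33.3. In ZMAT3 it ranged from 11.6 to 23.4 with a median of 15.2, and in PHF7 from 0, in the library of 63659 reads, to 18.0 with a median of 14.5. All 12 libraries of each of these arms lay below the NT median, and 2 of each lay below the lowest NT library. The log2 changes were -1.12 in PHF7 (SE 0.26, adjusted p = 0.0054) and -1.02 in ZMAT3 (SE 0.23, adjusted p = 0.0024). The PHF7 call was lost without replicate 1 (adjusted p = 0.071) or replicate 2 (0.23), and the ZMAT3 call without replicate 2 (0.083). In the libraries labelled ZFP36L1 the change was -0.83 (SE 0.29, adjusted p = 0.019). Ordered by mean, the arms ran ZNF706, BRCA1, NT, ZMAT5, MAZ, CNOT4, ZFP36L1, ZMAT3 and PHF7, with each neighbour closer than the larger SD of the pair.

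ZCRB1, an RNA-binding protein of the di-snRNP, stood at 141 to 213 normalised CPM in MAZ (mean 177 ± 22.2, n = 12), against 57.1 to 163 in NT (118 ± 33.7). The log2 change was 0.59 (SE 0.13, adjusted p = 0.0025), a call lost without replicate 1 (adjusted p = 0.078). In CNOT4 it fell to 65.8 ± 26.7 (log2 -0.88, SE 0.33, adjusted p = 0.044), a call lost without the 8 h libraries of both arms (-0.95, adjusted p = 0.12), without replicate 1 (adjusted p = 0.24), without replicate 2 (0.27), with the replicate block (0.054), without multimapped reads (0.057) and in the 0 h libraries alone (0.16). SCNM1, whose protein acts in the activated minor spliceosome, rose in CNOT4 to 75.8 ± 24.9 against 40.4 ± 9.12 in NT (log2 0.88, SE 0.20, adjusted p = 0.0012), a call lost without replicate 1 (adjusted p = 0.069). It also rose in the libraries labelled ZFP36L1 (0.69, SE 0.14, adjusted p = 0.00015). In both arms reads covered fewer T positions than in NT.

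The libraries labelled ZFP36L1 further held higher ZMAT5 (log2 0.70, adjusted p = 0.030) and PDCD7 (0.62, adjusted p = 0.041), and lower SNRNP48 (-0.35, adjusted p = 0.0075), RNPC3 (-0.74, adjusted p = 0.026) and ARMC7 (-0.78, adjusted p = 0.0025). At 7 of 10 members beside 40% of genes, this arm had the most member calls. The 7 became 3 to 5 when replicate 1, 2 or 3 was left out, and RNPC3 lost its call with the replicate block (adjusted p = 0.069). SNRNP48 thus lay at opposite ends in the order of arms, with a mean of 144 ± 26.5 in ZMAT5 and 88.8 ± 12.2 in the libraries labelled ZFP36L1, 115 ± 24.1 in NT between them, and no neighbour in the order apart by more than the larger SD. RNPC3 had a log2 change below 0 in all 8 arms (-0.27 to -0.80), of which the one in ZFP36L1 was called, and all 8 rest on the same NT libraries.

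**Figure D3:**
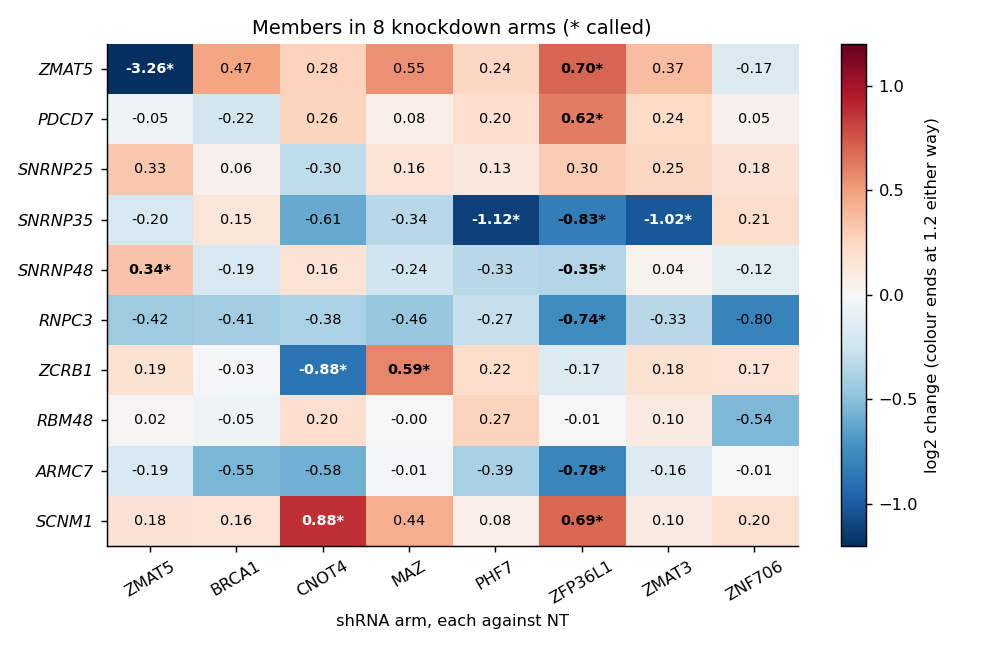
Log2 change against NT (colour and printed value) for the 10 members (rows) in the 8 arms with a targeting hairpin (columns), with an asterisk for a call; in the CNOT4 and ZFP36L1 columns the targeted mRNA was not lower than in NT. The ZMAT5 column has 2 calls, at -3.26 for ZMAT5 and 0.34 for SNRNP48, and the ZFP36L1 column has 7.

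Label was followed next, to ask whether the lifetime of these mRNAs moved with ZMAT5. The pooled T>C rate over 4832 well-covered genes was 1.72% to 1.88% in the 3 NT libraries at 0 h and 1.24% to 1.32% in the 3 ZMAT5 libraries, and 0.635% to 0.699% against 0.538% to 0.567% at 8 h. The lower label of the ZMAT5 arm at 0 h was thus seen over the pooled genes, not the members alone. Relative to that pooled rate, none of the 8 members tested differed in label at 0 h, and 0 of 8260 genes were called by edgeR (367 at an unadjusted p under 0.05, 0 of them members). ZMAT5 and RBM48 did not pass the minimum of 5 deposited CPM in 2 replicates of both arms.

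SNRNP48 label in NT was 1.79% ± 0.83 at 0 h, 1.82% ± 0.16 at 2 h, 0.91% ± 0.49 at 4 h and 0.09% ± 0.12 at 8 h (SD, n = 3). In ZMAT5 it was 1.15% ± 0.33, 1.05% ± 0.16, 0.98% ± 0.27 and 0.28% ± 0.05. The arms overlapped at 0 h and 4 h. All 3 ZMAT5 libraries lay below the 3 NT libraries at 2 h and above them at 8 h. How many of all genes separated likewise in label was not counted. The fitted loss of SNRNP48 label was 0.40 per hour in NT and 0.18 in ZMAT5 (unadjusted p = 0.023, adjusted p = 0.44), which was not called. The same slope was 0.26 in BRCA1, 0.21 in ZFP36L1, 0.20 in PHF7, 0.18 in MAZ, 0.12 in both ZNF706 and ZMAT3 and 0.08 in CNOT4, each beside 0.40 in the shared NT libraries. The half-life from a first-order curve was 4.10 h in NT and 6.69 h in ZMAT5, with R² of 0.79 and 0.77. It was 6.76 h in MAZ, 6.72 h in CNOT4, 6.63 h in ZMAT3, 4.43 h in ZFP36L1, 4.35 h in PHF7, 3.55 h in ZNF706 and 3.22 h in BRCA1. In ZNF706 and BRCA1 the half-life was shorter than in NT while the slope was smaller, so the 2 measures differ in direction there.

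SNRNP35 label went from 2.64% ± 0.77 at 0 h to 0.0051% ± 0.0088 at 8 h in NT, and from 1.26% ± 1.00 to 0.23% ± 0.37 in ZMAT5. Its slopes were 0.72 and 0.23 per hour (unadjusted p = 0.017, adjusted p = 0.40), and its half-lives 1.98 h and 4.17 h. RNPC3 and PDCD7 also lost label fast in NT, with slopes of 0.59 and 0.45 per hour, against 0.34 and 0.17 in ZMAT5. The half-life of RNPC3 was 1.04 h in NT and 4.25 h in ZMAT5, and that of PDCD7 0.83 h and 6.18 h (R² in ZMAT5 0.78 and 0.65). These curves left out libraries not over 5 deposited CPM, here replicate 2 at 0 h. For RNPC3 its label was 0.70% in NT, where 4.01% and 1.68% were kept. In ZMAT5 it was 2.72%, where 1.54% and 0.75% were kept, so both omissions widened the gap at 0 h. For PDCD7 it was 1.39% in NT, where 3.18% and 2.60% were kept. In the other arms with R² over 0.6, the half-life of RNPC3 ran from 1.06 h in BRCA1 to 2.80 h in ZMAT3. That of PDCD7 ran there from 2.07 h in PHF7 to 4.36 h in MAZ, and that of SNRNP35 from 1.38 h in BRCA1 to 3.49 h in PHF7. The slopes of RNPC3 and PDCD7 in ZMAT5 against NT had adjusted p of 0.68 and 0.66 by edgeR. ZCRB1 was the slowest, at 0.06 per hour in NT and 0.03 in ZMAT5, and its label at 8 h was still 1.04% ± 0.33 in NT and 0.82% ± 0.12 in ZMAT5. SNRNP25, SCNM1 and ARMC7 lay between, at 0.16, 0.11 and 0.11 per hour in NT, against 0.05, 0.13 and 0.25 in ZMAT5. The median over all genes tested was 0.20 per hour in NT and 0.17 in ZMAT5.

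No member's slope was called in any arm. The share of genes called was 0.0684% in ZMAT5, 0% in BRCA1, 0.0579% in CNOT4, 0.0402% in MAZ, 0.307% in PHF7, 0.0815% in ZFP36L1, 0.573% in ZMAT3 and 0.0136% in ZNF706. At an unadjusted p under 0.05 there were 2 of 8 members in ZMAT5, beside 678 of 7312 genes. The conversions behind a value were few for several members. SNRNP35 in NT rested on 515 conversions in 18741 covered T positions at 0 h and on 1 in 20726 at 8 h.

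**Figure D4:**
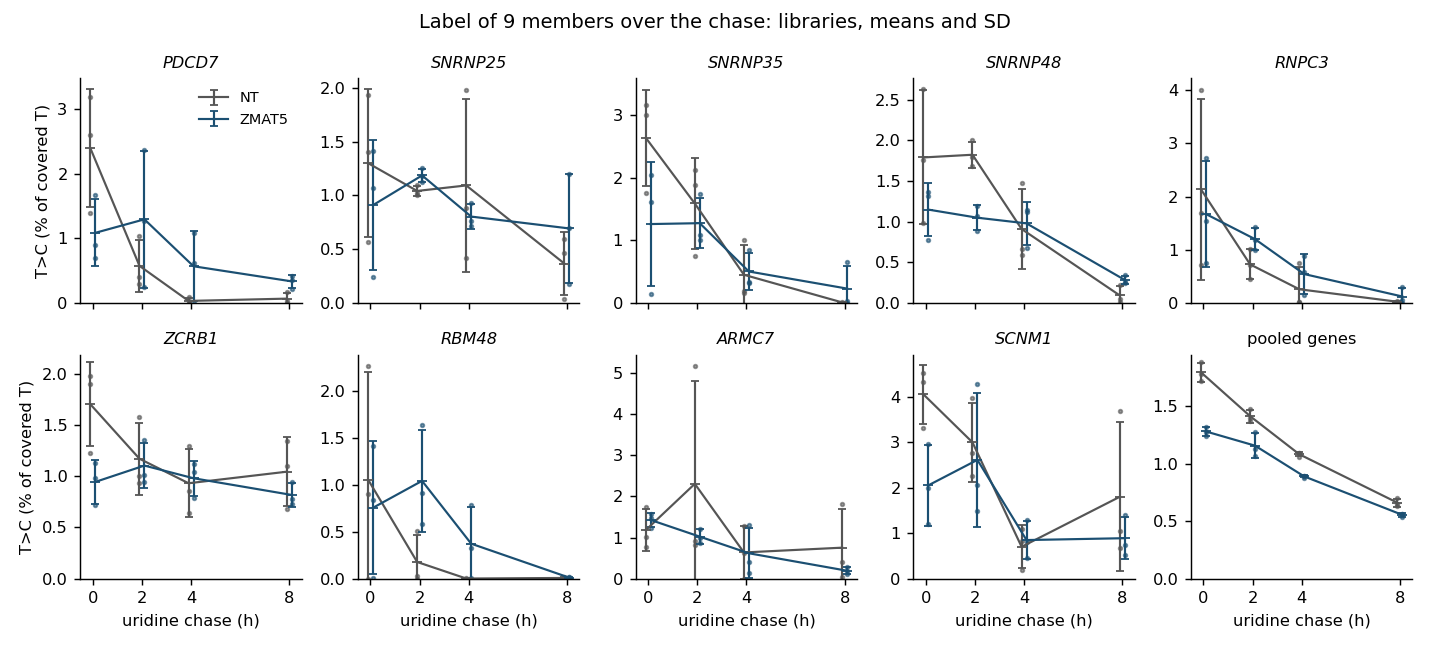
T>C conversions as a percentage of covered T positions (vertical axes, linear, each panel with its own range) against hours of uridine chase for 9 members and for the 4832 pooled genes, in NT (grey) and ZMAT5 (blue), with libraries as dots and means with SD of 3 libraries as bars. The pooled rate starts at 1.72% to 1.88% in NT and 1.24% to 1.32% in ZMAT5, and ZCRB1 keeps most of its label through 8 h.

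Members with more than 1 counted interval allow a look at which end of the gene the reads came from. There were 17 intervals over the 10 members, and 4 members had several. The edgeR test of interval usage covered 8 intervals of SNRNP25, SNRNP48 and ARMC7 and called none, beside 0.110% of 12683 intervals, with 1 of the 8 and 970 of all at an unadjusted p under 0.05. That one was a 74-base interval of SNRNP25 (chr16:56540-56613), upstream of the main 3′ UTR at chr16:57087-57669. It held 96 of the gene's reads in NT and 1233 in ZMAT5 (log2 difference in usage 3.97, unadjusted p = 0.00076, adjusted p = 0.16). Pooled over libraries its share was 1.14% in NT, 1.67% in BRCA1, 0.259% in CNOT4 and 0.297% in ZFP36L1, the 4 arms of lowest median depth. It was 7.54% in ZMAT5, 7.05% in ZMAT3, 6.77% in PHF7, 5.75% in MAZ and 5.15% in ZNF706, the 5 deeper arms. Among the 4 shallower arms the pooled share was lower in CNOT4 and ZFP36L1, where median depth was lowest, than in BRCA1 and NT. Among the 5 deeper arms the pooled share was highest in ZMAT5, where median depth was lowest, and lowest in ZNF706, where it was highest. The median library had a share of 0% in NT and BRCA1, where single libraries reached 12.6% and 25.4%, so the pooled share of these 2 arms rests on few libraries. Deeper arms were uneven too, from 0.0865% to 20.8% in ZMAT5 (median 4.79%) and from 0% to 18.7% in ZNF706 (median 2.42%). By median, MAZ (5.84%), PHF7 (5.57%) and ZMAT3 (7.54%) lay above ZMAT5, so the order of the deeper arms differs between pooled share and median. The part of depth in the split was not tested.

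SNRNP48 had 4 intervals, of which the last (chr6:7608872-7611967, 3096 bases) held 92.3% of its reads in NT and 92.6% in ZMAT5. The 23-base interval at which SNRNP48-203, the transcript annotated for nonsense-mediated decay, ends (chr6:7605399-7605421) held 3.41% and 3.92%, with a log2 difference in usage of 0.13 (adjusted p = 1.0). In the other arms its pooled share was 2.08% in BRCA1, 9.63% in CNOT4, 9.86% in ZFP36L1 and 3.79% to 4.60% in MAZ, PHF7, ZMAT3 and ZNF706. Usage in those arms was not tested. Other SNRNP48 transcripts run through that interval too. These 3′ tags do not read the extra exon itself, and its inclusion was not analysed here.

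The partners of the di-snRNP were taken from 4 lists. Of 6 other factors of the minor spliceosome (CENATAC, TXNL4B, ZRSR2, PPIL2, CRIPT and RBM41), TXNL4B, a thioredoxin-like splicing factor, rose in ZMAT5 against NT (log2 0.84, SE 0.26, adjusted p = 0.036) and 5 were not called (list median 0.21). TXNL4B was also called against the same NT libraries in ZMAT3 (0.91, adjusted p = 0.0039), and in ZMAT5 against the 4 other knockdowns it was not called (0.22, adjusted p = 0.29). PPIL2 had a log2 change of -0.50 (adjusted p = 0.053) and CENATAC of 0.22 (adjusted p = 0.65). Of 7 SF3b proteins, shared by the U2 and U12 snRNPs, PHF5A rose (0.63, SE 0.09, adjusted p = 2.1e-06) and 6 were not called (list median -0.19). Of 14 tri-snRNP proteins shared by both spliceosomes, PRPF6 rose (0.55, SE 0.16, adjusted p = 0.026) and 13 were not called (list median -0.04).

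The last list held protein-coding genes outside the members with an annotated intron that begins ATATCCTT or GTATCCTT, counted here as U12-type. No branch point was required. Of these 531 genes, 462 were tested in ZMAT5 against NT, 19 rose and 18 fell, and the median was -0.01, beside 9.51% of all genes called. The 5 with the smallest p were RPL4, a ribosomal protein (log2 0.37), EML2, a microtubule-associated protein (0.85), TMEM161A, a membrane protein (-0.81), IPO9, a nuclear import receptor (-0.69), and HSBP1, a heat shock factor-binding protein (0.42). Each of the 5 was also called in the same direction in at least 1 other arm against the same NT libraries, all 5 of them in MAZ (RPL4 0.46, EML2 0.62, TMEM161A -0.54, IPO9 -0.60 and HSBP1 0.40). Against the 4 other knockdowns, 34 of 486 rose and 42 fell, with a median of -0.02, beside 17.3% of all genes called. A 3′ tag count does not tell a spliced from an unspliced U12-type intron.

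The pattern of each member over the 36 groups of arm and chase time was set beside that of 14950 genes, as a description across groups that share libraries, depth and composition. The members did not move as a block. Over the 36 pairs of members other than ZMAT5, Pearson's r of group means ran from -0.34 to 0.84 with a median of 0.35. ZCRB1 with SNRNP25 was the closest pair. The closest single gene was STMP1 for ZCRB1 (r = 0.95), ATIC for SNRNP25 (0.93), NDUFA8 for SCNM1 (0.92), TEAD2 for ARMC7 (0.90), HDAC7 for SNRNP35 (0.88), CFAP97 for PDCD7 (0.87), SLC25A46 for RBM48 (0.75) and ELF4 for SNRNP48 (0.58). None of these is a member, and of these 8 members SNRNP48 had the least similar neighbour. The group means kept the shallow libraries, PHF7 8 h replicate 3 and CNOT4 2 h replicate 3. PDCD7, RNPC3, RBM48 and ARMC7 had 0 reads in both, and SCNM1 had 0 in the PHF7 library, whereas SNRNP48 had reads in both. Such zeros lower the same group means in several genes at once. The part of these libraries in the values of r, and in the place of SNRNP48, was not tested.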

How the data were processed

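Per the labels, the authors processed 3′ tag reads with SlamDunk 0.4.3 on hg38. The deposited tables hold, for each of 69079 3′ UTR intervals and each of 108 libraries, read counts, CPM, T coverage, conversions and the T>C rate as a fraction. Counts, covered T positions and conversions were summed per Ensembl gene (19761 genes, 19501 with a symbol). The deposited CPM served for the minimum of 5 CPM in 2 replicates required for slopes, label and half-lives. Half-life curves also left out each single library that was not over 5 CPM. Deposited fractions were recomputed from conversions and T coverage.

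Levels were tested with edgeR 4.0.16 in R 4.3.3 (quasi-likelihood, TMM, filterByExpr, chase time as a factor, 19 residual degrees of freedom for 24 libraries), adjusted by Benjamini-Hochberg over all genes. Slopes and label used conversions with T coverage as offset in the same tool, and interval usage its exon-level test. The fits of level, slope, label at 0 h and interval usage were tested on simulated data for the ZMAT5 arm. The chase-time test, half-lives, correlations and sequence searches were not. DESeq2 1.42.0 was an alternative, with the low-count filter, replicate block, multimapped reads, shallow libraries (under 2000000 reads), chase times and left-out replicates. Motif and U12-type intron searches used the hg38 genome and annotation.

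All 10 members are named whatever their values, with up to 5 called genes of smallest p per list and the 1 most similar gene per member other than ZMAT5 (that of RNPC3 is not reported here); uncalled genes of the 6 other factors were named after their values were seen. Members and lists were chosen with earlier results of these data known. No source used here names the sequencing batch of an arm, so a batch and an arm cannot be told apart. Reads carry no molecular identifiers.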

Additional observations from a re-analysis of the deposited data

Results flagged for a closer look

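For 3 members the level in the ZMAT5 arm differed from the mean of the MAZ, PHF7, ZMAT3 and ZNF706 arms, by the edgeR test. No NT library was in that fit. The log2 difference was -3.48 for ZMAT5, the target of the hairpin. It was 0.51 for SNRNP48, higher in ZMAT5 against each of the 4 taken alone. It was 0.37 for SNRNP35, where the sign depended on the knockdown it was set against.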

How the results depend on the processing

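SNRNP48 against the 4 knockdowns kept its call with DESeq2, other filters, the replicate block, left-out replicates and the 0 h libraries alone, while SNRNP35 there turned to -0.41 against ZNF706 alone. With the 0 h libraries alone, members called against NT were 0 in ZMAT5, CNOT4, MAZ, PHF7, ZFP36L1 and ZMAT3, and genes called were 107 in ZMAT5, 0 in BRCA1, 1463 in CNOT4, 71 in MAZ, 209 in PHF7, 1671 in ZFP36L1, 52 in ZMAT3, 54 in ZNF706 and 1164 in ZMAT5 against the 4 knockdowns; this setting uses fewer samples. Without the low-count filter, 1 member was called in ZMAT5 and 47 genes in BRCA1. DESeq2 called 2 members in MAZ, 2 members and 1961 genes in PHF7, 59 genes in BRCA1 and 1066 in ZNF706. Without the shallow libraries PHF7 had 2 members and 1922 genes called. Without multimapped reads CNOT4 had 1 member called. Without the 8 h libraries there was 1 member in CNOT4 and 3 in ZFP36L1, with 16 genes in BRCA1 and 416 in ZNF706.

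Leaving out 1 replicate number in turn gave 1 to 2 members and 676 to 688 genes in ZMAT5, 4 to 7 genes in BRCA1, 0 to 2 members and 1834 to 3677 genes in CNOT4, 0 to 1 and 509 to 632 in MAZ, 0 to 1 and 250 to 1204 in PHF7, 3 to 5 and 4151 to 4550 in ZFP36L1, 0 to 1 and 641 to 792 in ZMAT3, 272 to 530 genes in ZNF706, and 2 to 3 members and 1464 to 2149 genes in ZMAT5 against the 4 knockdowns. Same-numbered NT and ZMAT5 libraries correlated at -0.03 to 0.02 over 12 pairs, and 6 of 12 matched their own number best. With 3 libraries per group, this check does not settle whether replicate numbers pair the samples. The fit with the replicate block called 2 members and 1236 genes in ZMAT5, 1 member in CNOT4 in place of 2 (ZCRB1 lost) and 6 in ZFP36L1 in place of 7 (RNPC3 lost). Counts of members called for slopes, label, interval usage and chase time were 0 under each alternative run. Some settings use fewer samples, and the cause of a changed call was not tested for any setting. Depth limits label where few conversions were read, as for SNRNP35 at 8 h.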
